A study of Mus musculus with 6 samples.

Results

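The 36 genes described here encode the machinery that carries a cell through mitosis: the kinase Cdk1 with its cyclins, the Polo and Aurora kinases, the spindle checkpoint, the kinetochore, the motors and bundlers of the spindle, and the proteins of cytokinesis. They were taken as the 36 listed symbols among the 48587 rows of the deposited count table, all 36 were found, and all 36 passed the filter on low counts that left 14311 genes for testing. Ribosome-bound RNA was measured in kidneys of neonatal mice, in 3 libraries from littermate controls (Cdh16Cre;Foxp1fl/+;RiboTag) and 3 from Foxp1-deficient animals (Cdh16Cre;Foxp1fl/fl;RiboTag). Every animal thus carried at least 1 floxed allele of Foxp1, a forkhead transcription factor gene, a Cre recombinase driven by the kidney tubule cadherin gene Cdh16, and RiboTag, which puts an HA epitope on ribosomes of cells with Cre. The treatment tag read vehicle for controls and chronic acid load for Foxp1-deficient libraries, while the protocols mention no acid load, so genotype and that tag cannot be told apart. The labels do not say that the libraries come from separate animals, so a p-value here measures the spread between libraries, which may be technical.

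Mitotic genes are switched on together late in the cell cycle. Their promoters are known for CCAAT boxes, bound by NF-Y, and for the cell cycle homology region (CHR), through which MuvB complexes repress the genes in resting cells and, with B-MYB and FOXM1, activate them in G2 and M. The proteins then act in turn: Cdk1 with cyclin B starts mitosis, kinetochores attach chromosomes to the spindle, the checkpoint holds the anaphase-promoting complex (APC/C) in check until attachment is complete, and the midzone proteins direct the final cut between daughter cells. The neonatal mouse kidney still grows, and dividing cells occur in several of its compartments.

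RefSeq promoter windows (GRCm38.p6, 250 bases before to 50 after a gene's start) were at hand for 29 of the 36 genes, in 32 windows. Bub3, Prc1 and Ect2 each had 2 windows that overlapped, so letters shared by both are counted in each. CHR letters (TTTGAA or TTCGAA, either strand) stood in 26 of these 32 windows, or 81.2%, against 19.2% of all 32851 windows and 13.6% of the 13212 windows of tested genes. CCAAT (either strand) stood in 25, or 78.1%, against 37.4% of all windows and 37.2% of those of tested genes, and 17 windows held it at least 2 times (53.1%, against 11.7% and 13.7%). Both kinds of letters were present in 23 windows, 71.9% against 7.52% of all windows and 5.54% of those of tested genes. E2F letters (TTCCCGC or TTGGCGC, either strand) stood in 5 windows (15.6%, against 6.81% of all windows and 11.5% of those of tested genes), and 3 of these 5 matches shared bases with a CCAAT match. The Ect2 match is counted in both of its windows. The forkhead letters TGTTTAC (either strand) stood in 2 windows, those of Nuf2 and of 1 Ect2 start (6.25%, against 3.65% and 2.48%). Letters that match are not thereby binding sites.

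Of the 26 windows with CHR letters, 14 held them before the start and 12 only after or across it. The same Prc1 letters fell across the start in 1 of its windows and before it in the other. CCAAT matches before the start numbered 51, and 38 of them began within 100 bases of it. The 6 promoters below are those of the genes followed in detail that held both letters before the start, and Birc5, a gene that held neither, is added for contrast after its values were seen. CHR and CCAAT matches on either strand are in capitals, and each sequence runs 5′ to 3′ to the last base before the start.
Cdk1 (chr10:69352913-69353162, minus strand): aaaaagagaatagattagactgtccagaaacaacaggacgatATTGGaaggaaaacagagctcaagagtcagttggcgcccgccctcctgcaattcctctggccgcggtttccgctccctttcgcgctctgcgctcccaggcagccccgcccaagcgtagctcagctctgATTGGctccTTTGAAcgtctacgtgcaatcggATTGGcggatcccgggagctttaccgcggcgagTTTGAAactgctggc
Ccnb2 (chr9:70421555-70421804, minus strand): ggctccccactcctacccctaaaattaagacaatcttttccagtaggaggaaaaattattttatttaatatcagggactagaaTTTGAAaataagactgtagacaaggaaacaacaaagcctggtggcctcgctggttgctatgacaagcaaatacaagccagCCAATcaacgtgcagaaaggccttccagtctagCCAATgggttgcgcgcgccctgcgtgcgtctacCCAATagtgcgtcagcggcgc
Cdc20 (chr4:118437344-118437593, minus strand): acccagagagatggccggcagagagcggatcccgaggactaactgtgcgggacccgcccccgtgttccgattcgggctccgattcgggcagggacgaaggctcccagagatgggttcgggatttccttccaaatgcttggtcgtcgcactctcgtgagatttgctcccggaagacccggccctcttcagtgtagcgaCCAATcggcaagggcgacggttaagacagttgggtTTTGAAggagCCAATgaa
Espl1 (chr15:102296043-102296292, plus strand): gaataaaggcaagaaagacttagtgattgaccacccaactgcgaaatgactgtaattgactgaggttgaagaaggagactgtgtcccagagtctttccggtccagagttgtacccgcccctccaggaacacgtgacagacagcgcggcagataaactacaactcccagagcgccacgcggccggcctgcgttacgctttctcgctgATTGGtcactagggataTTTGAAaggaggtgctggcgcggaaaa
Kif11 (chr19:37376132-37376381, plus strand): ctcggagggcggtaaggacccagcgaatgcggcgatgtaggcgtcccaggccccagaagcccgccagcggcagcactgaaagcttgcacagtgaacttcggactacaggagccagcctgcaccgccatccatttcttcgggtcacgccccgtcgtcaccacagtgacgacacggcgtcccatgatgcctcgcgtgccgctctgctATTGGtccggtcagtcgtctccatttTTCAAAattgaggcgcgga
Mki67 (chr7:135716380-135716629, minus strand): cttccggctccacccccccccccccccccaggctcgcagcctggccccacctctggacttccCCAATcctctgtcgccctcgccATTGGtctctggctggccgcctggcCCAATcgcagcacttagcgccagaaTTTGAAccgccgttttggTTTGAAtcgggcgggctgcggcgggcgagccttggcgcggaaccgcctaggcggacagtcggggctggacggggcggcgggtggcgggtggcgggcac
Birc5 (chr11:117848987-117849236, plus strand): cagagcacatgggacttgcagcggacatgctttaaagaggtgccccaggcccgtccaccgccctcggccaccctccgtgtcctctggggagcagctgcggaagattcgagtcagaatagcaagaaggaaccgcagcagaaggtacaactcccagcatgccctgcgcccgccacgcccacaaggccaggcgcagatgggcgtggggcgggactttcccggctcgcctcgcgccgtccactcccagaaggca
In Cdk1, a CHR match began 15 bases before the start and another 71 bases before it, with CCAAT matches at 48, 80 and 208 bases. In Cdc20 the CHR match began at 18 bases, between CCAAT matches at 8 and 53. Espl1 and Kif11 each had 1 CHR match, at 27 and 19 bases and read on opposite strands, and 1 CCAAT match upstream of it, at 44 and 45 bases.

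**Figure D1:**
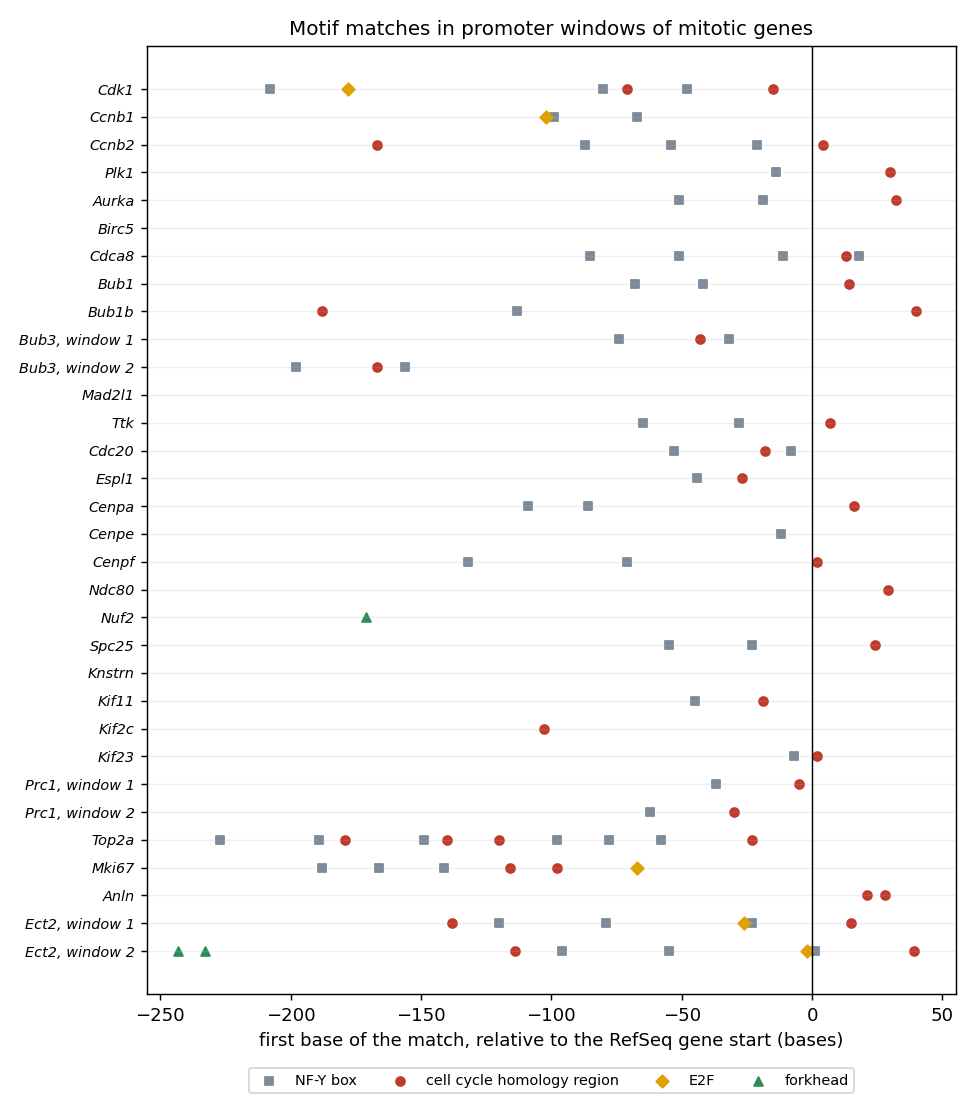
Matches to 4 motifs in the 32 RefSeq promoter windows of 29 mitotic genes, placed by the distance in bases of their first base from the gene start (vertical line), with 1 row per window. CHR matches stood in 26 windows and NF-Y box (CCAAT) matches in 25, and 38 of the 51 CCAAT matches before the start began within 100 bases of it.

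Library totals ran from 9710048 to 18958196 counts, and the 36 genes together took 0.301% to 0.433% of them. Levels are in CPM, library-scaled counts with TMM factors. Foxp1 itself, the targeted gene, had 48.6, 30.7 and 35.8 CPM in control libraries 1 to 3 and 34.5, 11.3 and 29.2 in the Foxp1-deficient ones. They were lower in the Foxp1-deficient library of every pair, and the groups overlapped. Libraries numbered 2 stood apart from the rest in both genotypes, with 13885 and 14285 genes detected against 18241 to 22190, and with 6.65% and 8.72% of counts on rows of ribosomal RNA type against 1.49% to 2.85%. The labels call the material kidney tubular cells, but defining markers of tubule epithelium were scarce outside the libraries numbered 3. Cdh16, Cdh1, Epcam, Pax8 and Pax2 summed to 0.928, 12.7 and 61.8 CPM in the control libraries and to 2.26, 3.94 and 62.2 in the Foxp1-deficient ones, and Pax2 had no count in 4 of 6. In these bulk libraries, fewer cells of a type and less RNA per cell cannot be told apart.

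After TMM scaling, the summed level of the mitotic transcripts varied little between libraries, while their share of the unscaled counts was lowest in both libraries numbered 2, at 0.317% and 0.301% against 0.411% to 0.433%. The 36 genes summed to 4094, 3747 and 3764 CPM in the control libraries (in order 1, 2, 3), and to 3999, 3720 and 3558 CPM in the Foxp1-deficient ones. The highest sum was 1.15 times the lowest, and the groups overlapped, at 3868 ± 195 and 3759 ± 223 CPM (SD, n = 3 each). Over the same libraries the summed level of 11 proximal tubule genes ran from 43.4 to 1181 CPM, a 27.2-fold range, and that of 8 stromal genes from 4174 to 19680 CPM, a 4.71-fold range. Erythroid genes, which also mark a dividing lineage, summed to 673 to 3691 CPM, and mesothelial genes to 1655 to 4985 CPM. Which cells the mitotic RNA came from was not tested.

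**Figure D2:**
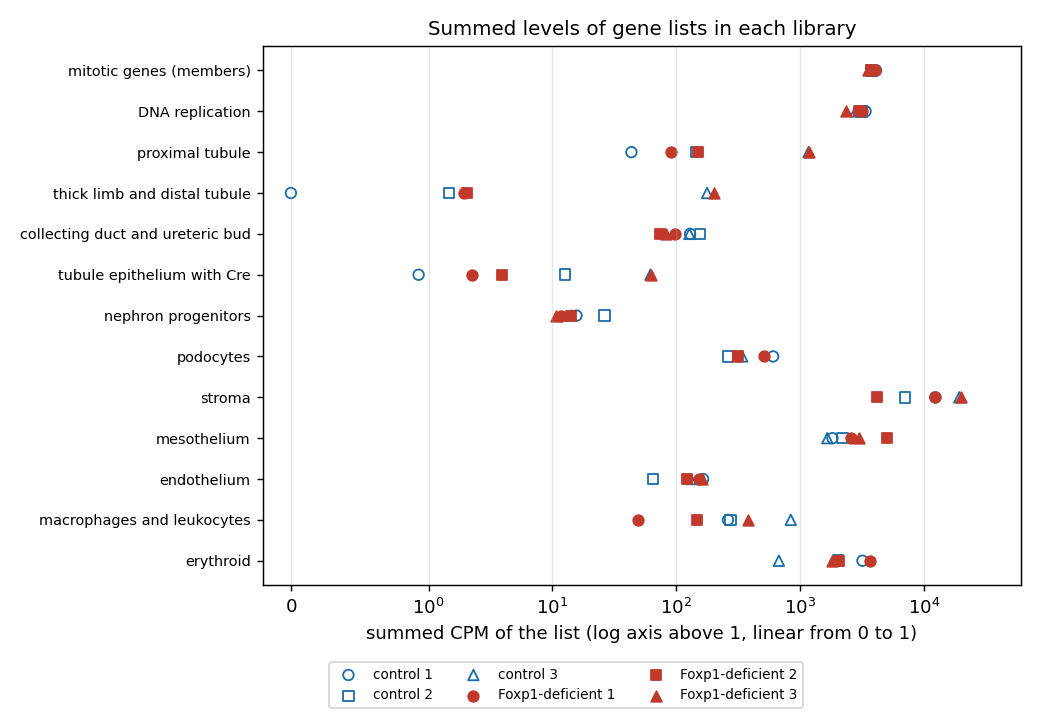
Summed CPM of the mitotic genes, of DNA replication genes and of 11 marker lists (rows) in each of the 6 libraries (symbols), on an axis that is logarithmic above 1 and linear from 0 to 1. The mitotic sums lie between 3558 and 4094 CPM, whereas the proximal tubule sums run from 43.4 to 1181.

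DNA replication genes, a list of 37 that act in the preceding S phase, summed to 2347 to 3369 CPM. Per kilobase of exon, the mitotic sum was 1.18, 1.20 and 1.24 times the replication sum in the control libraries, and 1.20, 1.23 and 1.35 times it in the Foxp1-deficient ones. The ratio was higher in the Foxp1-deficient library of every pair, but the groups overlapped, at 1.20 ± 0.0299 and 1.26 ± 0.0758 (SD, n = 3 each).

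Compared per kilobase of exon, the genes spanned a 20.4-fold range of mean level over the 6 libraries. Cdc20, the APC/C activator that triggers anaphase, was highest at 87.4 ± 31.0 CPM per kb (SD, n = 6), followed by the cyclin gene Ccnb2 at 68.2 ± 8.46 and the Polo kinase gene Plk1 at 65.3 ± 17.5. Birc5, encoding survivin, came next at 55.2 ± 47.7 and Cdk1 at 47.7 ± 12.1. The lowest were Espl1, encoding separase, at 6.64 ± 1.86, the checkpoint kinase gene Ttk at 5.20 ± 1.43, and Cenpf, encoding a large outer kinetochore protein, at 4.28 ± 0.767. Of 35 steps between neighbours in this order, only 1, from Cenpe to Espl1, was larger than the SD of both genes. That SD is the spread of each gene over the same 6 libraries, so it does not measure whether neighbours differ. Espl1 lay above Cenpe in Foxp1-deficient 2, at 9.19 against 8.81 CPM per kb, while Tpx2 lay above its neighbour Top2a in every library. The median gene stood at 19.5 CPM per kb, against 4.98 for all tested genes, and 35 of 36 lay above that value. Cdc20 kept between rank 1 and 3 in every library, Ccnb2 between 2 and 4 and Tpx2 between 6 and 8, while Birc5 ranged from 1 to 16 and Anln from 1 to 23.

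**Figure D3:**
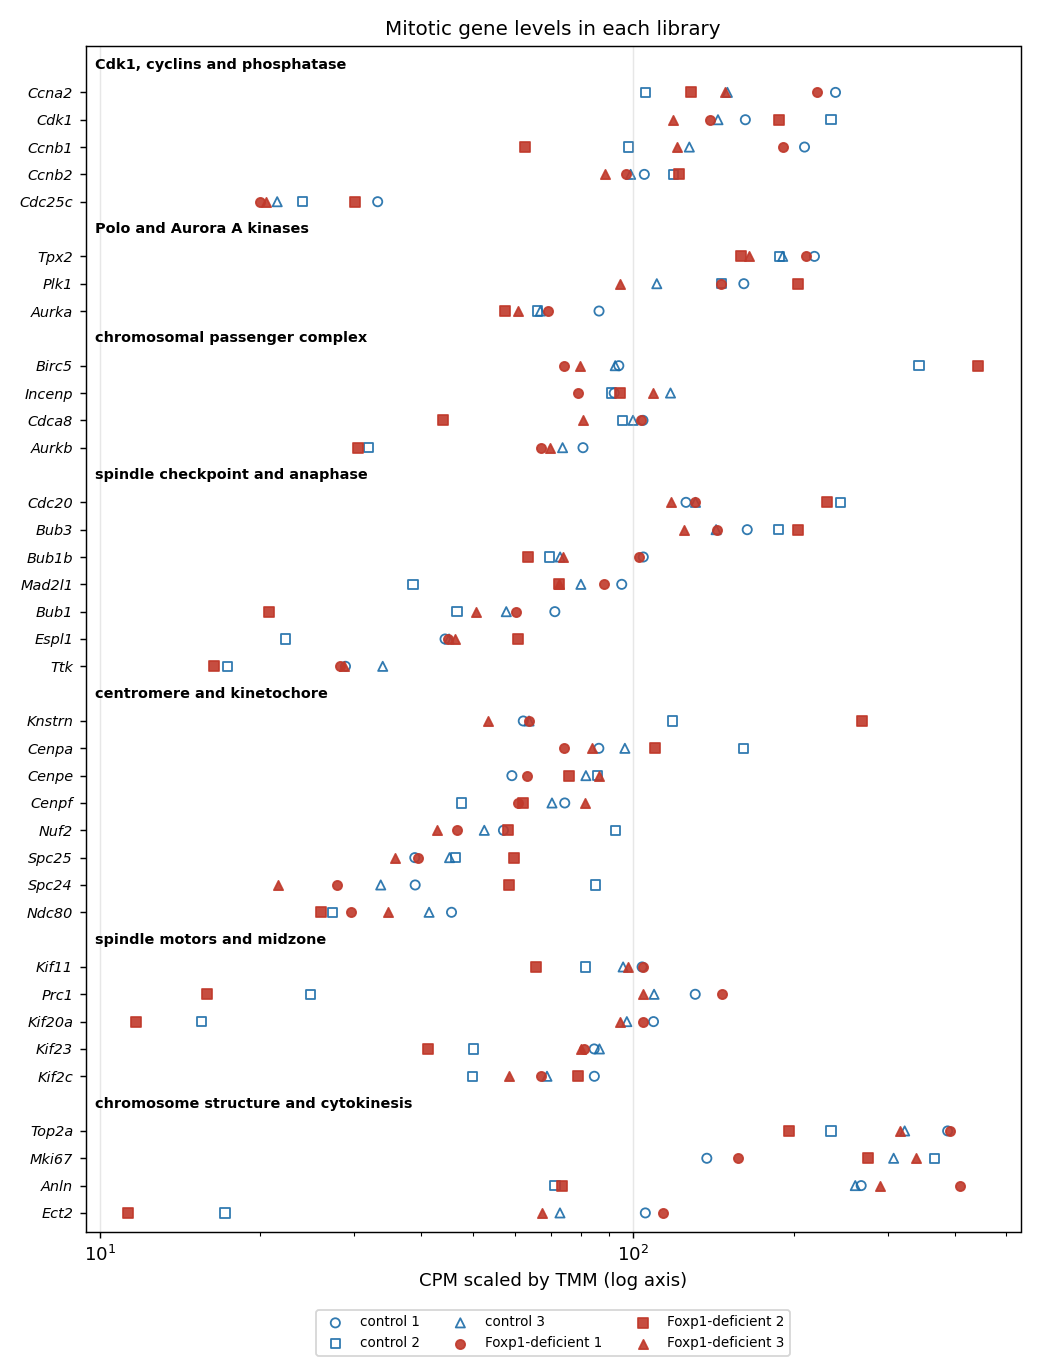
CPM (scaled by TMM, log axis) of each of the 36 mitotic genes in the 6 libraries, grouped by role and ordered by mean within a role. Open blue symbols are controls, filled red symbols Foxp1-deficient, and shapes give the library number. Squares, the libraries numbered 2, lie apart for many genes, such as Birc5, Kif20a, Prc1 and Ect2, whereas blue and red symbols of equal shape mostly lie close together.

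Wide differences among the 6 libraries went with the library number. Both libraries numbered 2 lay above the other 4 for 10 of the 36 genes (27.8%, against 24.6% of all tested genes did so) and below them for 14 (38.9%, against 34.5% of all tested genes). Both libraries numbered 3 lay below the other 4 for 2 genes, Plk1 and Bub3 (5.56%, against 7.66% of all tested genes). These shares were near those of genes at large. The genes set apart in this way are described here for their size, and none of these contrasts was tested, since the number is no group of the study.

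Of the genes that were lower in the libraries numbered 2, 4 with wide gaps are given here, chosen after their values were seen. Kif20a, a kinesin gene of the midzone, had 15.5 and 11.7 CPM in control 2 and Foxp1-deficient 2, and 94.4 to 109 in the other 4, a mean 7.45 times higher. Ect2, whose product positions the cleavage furrow, had 17.2 and 11.3 CPM against 67.4 to 114, and Prc1, whose product bundles antiparallel microtubules, had 24.8 and 15.9 against 104 to 147. Anln, encoding the furrow scaffold anillin, had 71.4 and 73.6 CPM against 261 to 410. These 4 genes were 4.24 to 7.45 times higher in the mean of the other 4 libraries. Kif23, another kinesin gene of the midzone, differed less, with 50.2 and 41.2 CPM against 80.0 to 86.4. Racgap1, a further midzone gene, overlapped with 148 and 163 CPM against 146 to 204.

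In the other direction, Birc5 stood at 343 and 443 CPM in those numbered 2 and at 74.3 to 94.0 in the other 4, a mean 4.62 times lower there. Knstrn, encoding a kinetochore protein also called kinastrin, had 118 and 269 CPM against 53.5 to 63.9, and Spc24, a subunit gene of the Ndc80 complex, 85.0 and 58.6 against 21.6 to 39.0. Cdc20 had 245 and 230 CPM against 118 to 131. Both libraries numbered 1 lay above the other 4 for 13 genes (36.1%, against 19% of all tested genes) and below them for 2, Cenpe and Mki67 (5.56%, against 12.9%), while those numbered 3 lay above for Incenp alone (2.78%, against 13.4%). Mki67, encoding the chromosome surfactant Ki-67, set the libraries numbered 1 apart, with 137 and 157 CPM against 275 to 367.

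Across the 36 genes, the deviation of control 2 from the mean of controls 1 and 3 and that of Foxp1-deficient 2 from the other Foxp1-deficient libraries had a Pearson r of 0.891, given as a description. Both libraries share a low depth and each point is 1 gene in both, and over all 14311 tested genes r was 0.484. The sign was the same for 32 of 36 genes and for 11066 of the 14311 tested genes. For the 37 DNA replication genes r was 0.865, with the same sign for 34, so the likeness was not particular to mitotic genes. In the libraries numbered 1 and 3 their r was 0.864 and 0.779. The libraries numbered 1 and 3 gave r of 0.873 and 0.875 over the 36 genes. The sign was the same for 31 of 36 in each. Within a genotype each deviation is taken from the mean of the other libraries, so the deviations of the 3 numbers depend on one another. These values therefore cannot show whether the likeness extends beyond the libraries numbered 2. The cause of the departure of the libraries numbered 2, which were also the shallowest and held the fewest genes, was not tested.

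**Figure D4:**
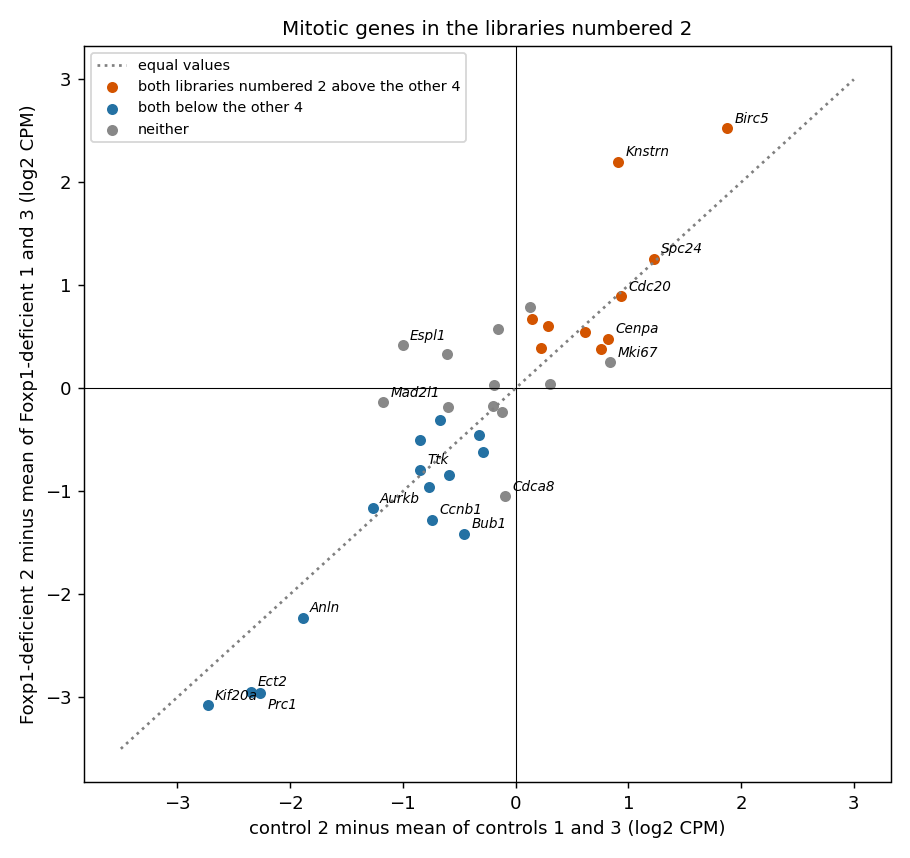
For each of the 36 mitotic genes, log2 CPM in control 2 minus the mean of controls 1 and 3 (horizontal axis) against the same difference for Foxp1-deficient 2 (vertical axis), with the line of equal values dotted. Orange genes (10) lie above the other 4 libraries in both libraries numbered 2 and blue genes (14) below. Birc5 and Knstrn are at the upper right and Kif20a, Ect2 and Prc1 at the lower left.

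Shares of RNA among the genes of a complex also differed in the libraries numbered 2. Protein was not measured. Per kilobase, Birc5 made up 24.3% to 26.6% of the 4 chromosomal passenger complex genes in the libraries numbered 1 and 3, and 63.6% and 73.0% in control 2 and Foxp1-deficient 2. Aurkb, the kinase gene of that complex, made up 23.2% to 26.3% and then 6.84% and 5.81%. Among the 4 subunit genes of the Ndc80 complex, whose proteins assemble in equal numbers, Spc24 made up 32.1% to 40.8% of the RNA and then 60.2% and 52.2%. Nuf2 kept between 11.1% and 13.9% in all 6 libraries. Of the B cyclins, Ccnb2 exceeded Ccnb1 per kilobase in every library, at 57.8% to 84.2% of their sum. That order rested on the deposited exon lengths, 1541 bases for Ccnb2 and 4217 for Ccnb1. In CPM, Ccnb1 exceeded Ccnb2 in the libraries numbered 1 and 3, with 209 against 105 in control 1, and lay below it in those numbered 2.

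Between genotypes, 0 of the 36 mitotic genes passed edgeR's quasi-likelihood test at an adjusted p under 0.05, where 0% of all 14311 tested genes did (adjusted p = 0.9998 for each of the 36, Benjamini-Hochberg). At an unadjusted p under 0.05 there were 0 of 36, against 0.72% of all genes. DESeq2 called 0 of 36 (0.0426% of all genes) and limma-voom with quality weights 0 (0%). The labels number the libraries but state no pairing. Equally numbered libraries shared deviations in these same counts, so a second fit took the number as a block. The block and the pairs thus rest on these data alone. With the block, edgeR called 0 of 36 (0%), and 2 genes, Spc24 and Nuf2, had an unadjusted p under 0.05, or 5.56% of the 36 against 5.32% of all genes. DESeq2 with the block called 0 (1.43% of all genes) and limma-voom with the block 0 (0.0559%). A count of 0 does not show that the genes were unaffected.

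The fitted differences were small and mostly toward lower values in Foxp1-deficient libraries. The log2 fold change was below 0 for 25 of the 36 genes (69.4%, against 46.4% of all genes) and above 0 for 11, with a median of -0.07 (0.03 over all genes). Leaving out 1 library moved that count to between 19 (without control 1) and 27 (without control 2), and the median to between -0.25 (without Foxp1-deficient 1) and -0.02 (without control 1). With the block, 26 were below 0 (72.2%, against 50.5%), and the median was -0.09 (-0.0059 over all genes). Within equally numbered pairs, 25, 22 and 29 of 36 genes were lower in the Foxp1-deficient library of pairs 1, 2 and 3, with median log2 differences of -0.11, -0.11 and -0.14. In all 3 pairs, 14 genes were lower (38.9%, against 16.1% of all genes) and 2 were higher (5.56%, against 18%). In none of the 36 did the groups separate without overlap, against 2.11% of all genes with Foxp1-deficient libraries lower and 2.64% with them higher. DNA replication genes had a like distribution, with 27 of 37 below 0, a median of -0.08, and 15 lower in all 3 pairs.

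**Figure D5:**
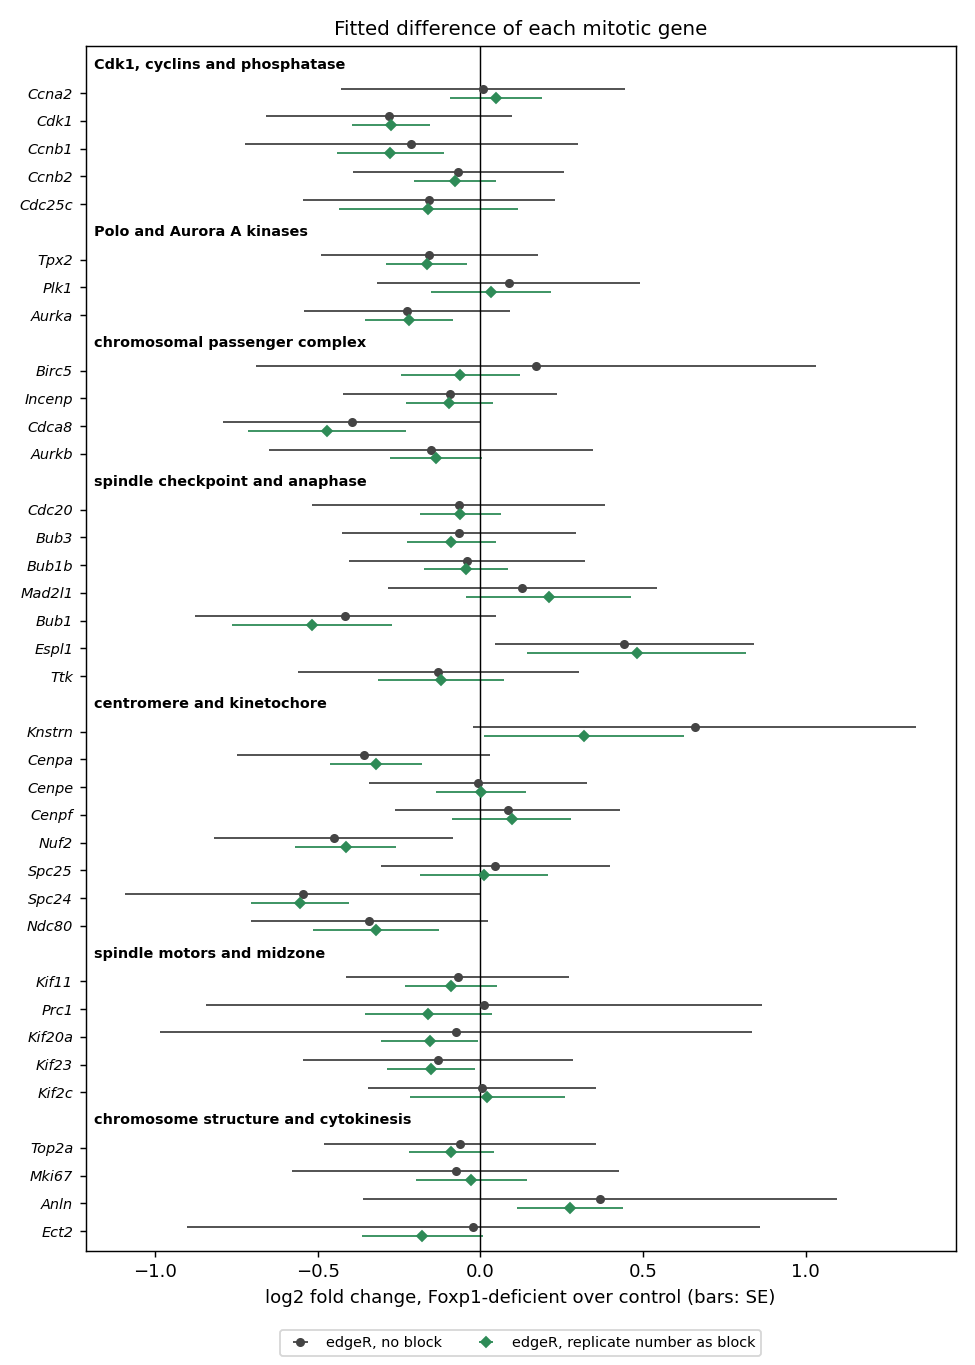
Fitted log2 fold change (Foxp1-deficient over control, bars show SE) of each mitotic gene, grouped by role, from edgeR without a block (grey circles) and with the replicate number as a block (green diamonds). The values without a block lie between -0.55 (Spc24) and 0.66 (Knstrn), and the bars are narrower with the block.

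Among the mitotic entry genes, 0 of 5 passed and 4 had a fold change below 0. Cdk1 (chr10:69336635-69352938, minus strand, mm10), the kinase gene that starts mitosis, had 162, 235 and 144 CPM in control libraries 1 to 3 and 139, 188 and 119 in the Foxp1-deficient ones, in the same order. It was lower in each pair although the groups overlapped, with a log2 fold change of -0.28 (SE 0.38), or -0.27 (SE 0.12) with the block. Ccnb1 (chr13:100778650-100786570, minus strand), encoding cyclin B1, had 209, 97.9 and 127 CPM and then 191, 62.8 and 121. It was again lower in each pair by less than the spread within a genotype, at -0.21 (SE 0.51). Ccnb2 (chr9:70407689-70421554, minus strand), encoding cyclin B2, had 105, 119 and 98.9 CPM and then 97, 122 and 88.6, at -0.07 (SE 0.32). Ccna2, the cyclin A2 gene, had a fold change of 0.01 (SE 0.44) and Cdc25c, the gene of a phosphatase that activates Cdk1, -0.16 (SE 0.39).

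Of Plk1, Aurka and Tpx2, 0 of 3 passed. Plk1 (chr7:122159439-122169873, plus strand), encoding the Polo-like kinase of centrosomes and kinetochores, had 161, 146 and 111 CPM in the 3 control libraries and then 146, 204 and 94.5 in the Foxp1-deficient ones. It was lower in pairs 1 and 3 and higher in pair 2, with a log2 fold change of 0.09 (SE 0.40), which turned to -0.17 without the libraries numbered 2. Aurka (chr2:172356190-172370535, minus strand), the Aurora kinase gene of spindle poles, had 86.3, 66.2 and 67.0 CPM and then 69.2, 57.5 and 60.9, at -0.23 (SE 0.32). Tpx2 (chr2:152847964-152895321, plus strand), whose product activates Aurora A on the spindle, had 219, 188 and 191 CPM and then 211, 159 and 165, at -0.16 (SE 0.33). Both were lower in each of the 3 pairs, and their groups overlapped.

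In the chromosomal passenger complex, which corrects faulty attachments and later acts at the midzone, 0 of 4 passed. Cdca8 (chr4:124918465-124939311, minus strand), encoding borealin, had 104, 95.6 and 99.9 CPM in the 3 control libraries and then 103, 44.0 and 80.4 in the Foxp1-deficient ones. Its controls were close together, and Foxp1-deficient 2 alone was far below them, giving a log2 fold change of -0.40 (SE 0.40). Without Foxp1-deficient 2 it was -0.12. Birc5 (chr11:117849251-117855743, plus strand) had 94.0, 343 and 92.5 CPM and then 74.3, 443 and 79.6. Its fold change of 0.17 (SE 0.86) turned to -0.27 without the libraries numbered 2. Aurkb (chr11:69045647-69051664, plus strand) had 80.5, 32.0 and 73.7 CPM and then 67.2, 30.5 and 69.8, at -0.15 (SE 0.50), and Incenp, the scaffold gene, was at -0.09 (SE 0.33).

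Of the 7 spindle checkpoint and anaphase genes 0 passed, with 5 below 0. Bub1 (chr2:127801122-127831865, minus strand), a kinase gene of the checkpoint, had 71.3, 46.7 and 57.8 CPM in the 3 control libraries and then 60.4, 20.7 and 50.6 in the Foxp1-deficient ones. It was lower in each pair, at a log2 fold change of -0.42 (SE 0.46), or -0.52 (SE 0.25) with the block. The log2 difference was -1.17 in pair 2 and -0.24 and -0.19 in pairs 1 and 3, and the fold change was -0.07 without Foxp1-deficient 2. Espl1 (chr15:102296293-102324356, plus strand), whose protease product cuts cohesin at anaphase, had 44.4, 22.3 and 45.2 CPM and then 45.0, 60.9 and 46.3. It went the other way in each pair, at 0.44 (SE 0.40), though the log2 difference was 1.45 in pair 2 and only 0.02 and 0.03 in pairs 1 and 3. Cdc20 (chr4:118432901-118437352, minus strand) had 126, 245 and 131 CPM and then 130, 230 and 118, at -0.07 (SE 0.45). The remaining checkpoint genes Bub1b, Bub3, Mad2l1 and Ttk lay between -0.13 and 0.13.

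Of the 8 centromere and kinetochore genes 0 passed, with 5 below 0. Spc24 (chr9:21755442-21760286, minus strand) had 39.0, 85.0 and 33.6 CPM in the 3 control libraries and then 27.8, 58.6 and 21.6 in the Foxp1-deficient ones. It was lower in each of the 3 pairs, and the groups overlapped through the libraries numbered 2. Its log2 fold change was -0.55 (SE 0.55), or -0.55 (SE 0.15) with the block, which did not pass either (adjusted p = 0.853, edgeR quasi-likelihood test). Without control 2 it was -0.03, and without Foxp1-deficient 2 it was -1.08. Nuf2 (chr1:169497934-169531464, minus strand), encoding another subunit of the microtubule-binding Ndc80 complex, had 57.1, 92.5 and 52.6 CPM and then 46.7, 58.4 and 43.0. It was lower in each pair, at -0.45 (SE 0.37), or -0.41 (SE 0.16) with the block (adjusted p = 0.853, edgeR quasi-likelihood test). Ndc80 was at -0.34 (SE 0.36) and Spc25, the fourth subunit gene, at 0.05 (SE 0.35). Cenpa, encoding the histone that marks centromeres, was at -0.36 (SE 0.39), and Knstrn at 0.66 (SE 0.68), where Foxp1-deficient 2 alone reached 269 CPM. Without that library Knstrn was at -0.47. The motor gene Cenpe and Cenpf were at -0.0061 and 0.08.

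Of the 5 genes of spindle motors and midzone 0 passed. Kif23 (chr9:61917280-61946799, minus strand) had 84.5, 50.2 and 86.4 CPM in the 3 control libraries and then 80.8, 41.2 and 80.0 in the Foxp1-deficient ones. It was lower in each pair, at a log2 fold change of -0.13 (SE 0.42). Kif11 (chr19:37376403-37421859, plus strand), encoding the Eg5 motor that pushes spindle poles apart, had 104, 81.4 and 95.7 CPM and then 104, 65.6 and 97.9, at -0.07 (SE 0.34). Kif20a, Prc1 and Kif2c, the last encoding a microtubule depolymerase, lay between -0.08 and 0.01.

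Of the genes for chromosome structure and cytokinesis 0 of 4 passed. Anln (chr9:22331214-22389206, minus strand) had 267, 71.4 and 261 CPM in the 3 control libraries and then 410, 73.6 and 290 in the Foxp1-deficient ones. It was the other gene, beside Espl1, that was higher in each pair, at a log2 fold change of 0.37 (SE 0.73), or 0.28 (SE 0.16) with the block. Mki67 (chr7:135689784-135716361, minus strand) had 137, 367 and 308 CPM and then 157, 275 and 338, at -0.08 (SE 0.50). Top2a, encoding the topoisomerase that untangles sister chromatids, and Ect2 were at -0.06 (SE 0.42) and -0.02 (SE 0.88).

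Genes that act around this machinery were tested in the same fit, and 0 passed in any of the 6 further lists. Of all tested genes, 46.4% were below 0 (50.5% with the block), 16.1% were lower in all 3 pairs, and 2.11% were lower without overlap. Of 23 regulators of G2/M transcription, 11 were below 0 and 12 above, with a median log2 fold change of 0.07, and with the block 13 were below 0 and 10 above, with a median of -0.02. E2f2 had 6.40 ± 1.33 CPM as the control mean and 11.1 ± 8.33 as the Foxp1-deficient mean (SD, n = 3 each) and E2f1 26 ± 2.27 and 33.7 ± 16.0, in both cases with Foxp1-deficient 2 far above the rest. Tfdp1, the dimerisation partner of E2F factors and the most abundant of the list per length, had 136 ± 77.5 and 130 ± 84.5 CPM. Of 19 APC/C subunits and partners, 13 were below 0 (68.4%), with a median of -0.09, and 9 were lower in all 3 pairs (47.4%). Fbxo5, encoding the APC/C inhibitor Emi1, had 33.5 ± 2.19 and 24 ± 6.80 CPM without overlap, Anapc13 51.9 ± 42.2 and 32.3 ± 21.5, and Ube2c, the ubiquitin-conjugating partner, 249 ± 134 and 234 ± 147.

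Of 9 genes that brake cyclin-dependent kinases, 4 were below 0 and 5 above, with a median of 0.22, and with the block 5 were below 0 and 4 above, with a median of -0.18. Pkmyt1, encoding an inhibitory kinase of Cdk1, had 30.6 ± 13.4 CPM as the control mean and 59.1 ± 56.1 as the Foxp1-deficient mean (SD, n = 3 each), with 124 in Foxp1-deficient 2 alone. Cdkn1a, encoding p21, had 88.3 ± 34.1 and 106 ± 23.8 CPM and Cdkn1c, encoding p57, 431 ± 158 and 510 ± 262. Of 34 other kinetochore and centromere genes, 20 were below 0 (median -0.07). Among them Ska1 had 27.2 ± 21.8 and 13.8 ± 3.67 CPM, Cenpp 10.7 ± 5.78 and 5.08 ± 2.71, and Zwint 189 ± 22.8 and 152 ± 42.2.

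Of 35 other spindle, midzone and cytokinesis genes, 24 were below 0 (median -0.05). Cdca2 had 51.3 ± 7.02 CPM as the control mean and 36.0 ± 6.32 as the Foxp1-deficient mean without overlap (SD, n = 3 each), and Cks1b, encoding a small Cdk-binding protein, 141 ± 18.5 and 108 ± 11.6. Of 13 condensin and cohesin genes, 7 were below 0 (median -0.01), with Ncaph at 63.2 ± 15 and 45.8 ± 17.1 CPM, Ncapg at 36.4 ± 11.3 and 40.8 ± 8.12, and Rad21 at 196 ± 107 and 183 ± 118. In the DNA replication list, Rfc3 had 51.6 ± 18.2 and 35.6 ± 12.4 CPM, Gins1 21.9 ± 10.4 and 14.9 ± 1.18, and Pcna 195 ± 22.8 and 181 ± 17.3. None of these genes passed (adjusted p = 0.9998 for each, edgeR quasi-likelihood test).

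None of the tested genes of the 11 marker lists of other cell types passed (edgeR quasi-likelihood test), and 6 of the lists are given here. Sums of 8 collecting duct and ureteric bud genes were lower in Foxp1-deficient libraries without overlap, at 127.6 to 155 CPM among controls and 74.0 to 97.3 among the others. Sums of 6 nephron progenitor genes were also lower without overlap, but only narrowly, at 14.2 to 26.2 CPM among controls and 10.7 to 14.0 among the others. Of the 5 collecting duct and ureteric bud genes tested, 3 were below 0 and 2 above. In 1 of these 5 the Foxp1-deficient libraries were lower without overlap, against 2.11% of all tested genes. Of the 4 nephron progenitor genes tested, 3 were below 0 and 1 above, and 0 were lower without overlap. All 6 macrophage and leukocyte genes were below 0, with a median log2 fold change of -1.20, and their summed level ran from 261 to 839 CPM among controls and from 49.0 to 382 among the others. Of 5 mesothelial genes 4 were above 0, with a median of 0.96. Their sums were higher in Foxp1-deficient libraries without overlap, at 1655 to 2184 CPM among controls and 2566 to 4985 among the others. In 1 of these 5 genes the Foxp1-deficient libraries were higher without overlap, against 2.64% of all tested genes. Of 6 endothelial genes 4 were below 0, with a median of -0.98, and sums of 64.9 to 165 and 121 to 162 CPM. Of 9 erythroid genes 7 were above 0, with sums of 673 to 3183 and 1811 to 3691 CPM. The part of these cells in the mitotic values was not tested.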

How the data were processed

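Ribosome-bound RNA of neonatal kidney was counted in 6 libraries, 3 per group, with groups and replicate numbers from the sample titles. The authors' deposited values are whole-number counts for each gene name. FeatureCounts 1.5.1 was run on read pairs and exons (mm10), per the file headers, with no strand option. Overlapping and antisense genes therefore cannot be told apart. Per the submitters' processing notes, tools included STAR, Trimmomatic, FastQC, SAMtools, deepTools and DESeq2, whose versions are not given in the sources used. The gene length in the deposited table, in bases of exon, was used for levels per kilobase. The length of the transcripts present was not measured, so the order of genes and the shares per kilobase rest on the deposited length.

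The test was edgeR's two-sided quasi-likelihood test (version 4.0.16 under R 4.3.3), after filterByExpr and TMM scaling, adjusted by Benjamini-Hochberg over 14311 genes. Library totals ran from 9710048 to 18958196 counts, so the upper limit behind a 0, taken as 3 counts, equals 0.137 to 0.382 CPM (counting error only). The scarcest mitotic gene of any library had 89 counts. Pair differences used a prior count of 0.5. Deviations of equally numbered libraries from their group means correlated at 0.523, 0.484 and 0.583, so the numbers were taken to pair them, from the data alone. Within a group these deviations depend on one another, so the 3 values are not separate evidence of pairing.

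Members, lists and the rule for genes followed in detail (per role, the most abundant per length and the 2 of lowest p) were chosen with earlier results of these data known. The fits were first tested on simulated data. A tubule marker was left out of its list and is not reported here. Alternatives were other size factors and filters, DESeq2 1.42.0, limma-voom (limma 3.58.1), the block, and libraries left out. Figures were drawn with matplotlib 3.10.9.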

Additional observations from a re-analysis of the deposited data

How the results depend on the processing

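Over 20 fits, 0 of the 36 mitotic genes passed in each, the lowest adjusted p being 0.269 (edgeR with the block, libraries numbered 2 left out), and between 19 and 30 had a fold change below 0. Direction held in all 20 fits for 9 genes below 0 and 1 above it. The count of all genes called was 0 in the main fit and moved to 6 with DESeq2, 169 with DESeq2 and the block, 8 with limma-voom and the block, and 30 with the block and the libraries numbered 2 left out. Of the genes followed in detail, Birc5 turned to -0.062 with the replicate block in edgeR, to -0.061 in DESeq2 and to -0.039 in limma-voom. With quality weights in limma-voom, Plk1 turned to -0.16, Birc5 to -0.23, Kif11 to 0.0031 and Mki67 to 0.13. Without the libraries numbered 2, Plk1 turned to -0.17, Birc5 to -0.27, Kif11 to 0.022 and Mki67 to 0.16, and with the block as well to -0.18, -0.27, 0.022 and 0.17. The block changed no call for the 36 genes. With each library left out in turn, the number of the 36 below 0 ran from 19 (without control 1) to 27, and the median from -0.25 to -0.02. The ranges of the genes that changed direction were -0.14 to 0.81 for Anln, -0.47 to 0.15 for Aurkb, -1.19 to 1.07 for Birc5, -0.67 to 0.16 for Ccnb1, -0.21 to 0.013 for Ccnb2, -0.42 to 0.30 for Cdc20, -0.21 to 0.11 for Kif11, -0.35 to 0.13 for Kif23, -0.39 to 0.20 for Mki67 and -0.21 to 0.31 for Plk1. The genes followed in detail that kept their direction ranged from -0.32 to -0.087 for Aurka, -0.72 to -0.075 for Bub1, -0.69 to -0.12 for Cdca8, -0.48 to -0.055 for Cdk1, 0.17 to 0.60 for Espl1, -0.60 to -0.16 for Nuf2, -1.08 to -0.03 for Spc24 and -0.31 to -0.076 for Tpx2. The cause of these shifts was not tested. Mean summed levels per kilobase were 939.8 with TMM and 941.7 with library totals.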
